A study of Homo sapiens with 5 samples.

Results

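Complement is a chain of plasma proteases and binding proteins that coats cells with fragments of C3 and can end in a lytic pore. C1R and C1S are the paired serine proteases of the C1 complex that start the classical pathway, C3 is the central component on which all pathways converge, and CFB supplies the protease of the alternative pathway convertase. The chain is restrained in the fluid phase by SERPING1 (C1 inhibitor, which blocks C1R and C1S) and by CFI, the protease that cuts C3b and C4b, and on the cell surface by CD46 (a cofactor for CFI), CD55 (which dissociates convertases) and CD59 (which blocks assembly of the pore). Nucleated cells generally carry such surface regulators, and carcinoma cells commonly express them.

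These 9 genes, chosen by name as complement components and regulators, were followed among 64837 gene entries counted in NCI-H209 cells, an established human small-cell lung cancer line. There were 2 groups in 5 libraries. The 3 control libraries came from untreated parental cells in RPMI-1640 with fetal bovine serum. The 2 co-cultured libraries came from the same line kept for 24 h below a Transwell insert holding human brain microvascular endothelial cells (HBMECs), so that both cell types shared the medium while only the tumour cells were harvested. The comparison addresses how tumour cells respond to endothelial cells of the brain vasculature. The paper describes no control with an empty insert, and it lists Nu-serum only for the HBMEC medium. Effects of the endothelial cells, the insert and any carried-over medium therefore cannot be told apart. Nothing in the labels says whether the replicates were separate cultures, so p-values measure the spread between these libraries, which may be technical, and the whole comparison rests on 1 cell line.

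Reads assigned to genes on the expected strand numbered from 15457071 to 19157348 per library, and 3 counts, taken as the floor of detection, were worth 0.157 to 0.194 CPM (counts relative to library size) of these totals. This floor covers counting error only, whereas the 95% intervals of fold changes given here come from the edgeR fit and include the spread between libraries. The unmapped share was 8.13% to 8.48% in control and 15.9% to 16.8% in co-cultured libraries. Reads outside annotated features made up 47.3% to 51.2% in control and 40.1% to 40.8% in co-cultured libraries. The part of these differences in the results was not tested. The neuroendocrine identity of the line was visible in both groups, since 11 of 12 marker genes were above the floor, with CHGA the exception, and their summed level ran from 2682 to 3219 CPM in control and from 3721 to 3739 CPM in co-cultured libraries. Of 22 endothelial markers, 8 never exceeded 3 counts, MMRN1, ECSCR and PLVAP were at 0 throughout, and the summed level was 18.6 to 31.8 CPM in control against 24.4 to 25.0 CPM in co-cultured libraries. Of these markers 11 could be tested and 2, ESAM and ICAM2, were called higher. Of 4 epithelial markers 1 was called higher (CDH1) and 1 lower (KRT8). Among the neuroendocrine markers 11 were tested, with 5 called higher and 1 lower. Over all genes tested, 18.4% were called higher and 15.0% lower. Some of the endothelial markers set control replicate 3 apart from the other controls. FLT1 had 30, 28 and 0 counts in the controls and 1 and 1 after co-culture, an example picked after its values were seen.

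The sequence just upstream of the transcription start was available from RefSeq (GRCh38.p14) for 6 of the 9 genes, and stretches are given for the 3 of them whose transcript level changed. The 7 short motifs described here were searched on both strands in the 250 bases before each start: the core of the interferon-stimulated response element (GAAANNGAA), the kappaB site (GGANTTTCC), the AP-1 site (TGANTCA), the core of the hypoxia response element (ACGTG), the GC box bound by Sp1-type factors (GGGCGG), the CCAAT box spelled by its name, and the TATA box found before many regulated genes (TATAAA). Capitals mark the letters of GC and CCAAT boxes, on either strand. CD46 lies upstream of its annotated exons over the whole stretch, C1R is shown for the 88 bases outside them, and CD55 is limited to 30 bases around its match because its window falls inside an annotated first exon.
CD46, chr1:207751804-207752053, + strand: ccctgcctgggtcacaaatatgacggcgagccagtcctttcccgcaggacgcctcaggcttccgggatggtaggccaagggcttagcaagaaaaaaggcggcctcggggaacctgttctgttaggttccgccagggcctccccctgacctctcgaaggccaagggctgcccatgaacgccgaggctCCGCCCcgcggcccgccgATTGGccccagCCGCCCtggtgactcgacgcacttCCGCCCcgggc
CD55, chr1:207321620-207321649, + strand: ccagcccagaccCCGCCCaaagcactcatt
C1R, chr12:7092608-7092695, - strand: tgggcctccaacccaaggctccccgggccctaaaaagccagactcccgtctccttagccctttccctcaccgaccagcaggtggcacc
The CD46 stretch held 3 GC boxes and 1 CCAAT box, and the whole 250-base window of CD55 held only the 1 GC box shown, 46 to 41 bases before the start. Over 35116 windows of this length, 42.6% held a GC box and 32.0% a CCAAT box, so both are common. The C1R stretch shown held no GC or CCAAT box. Of the 7 motifs described here, the CFB window had an interferon response core (6.88% of windows) and a TATA box (10.7%). Among the 4 windows of CD59, 1 held 2 AP-1 sites (6.57% of windows hold any) and another 1 hypoxia response core (18.5%). GC boxes and CCAAT boxes also occurred in CD59 windows, and the CFI window held 1 CCAAT box. These matches describe letters only.

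Of the 9 genes, 7 had enough reads to be tested and 2, CFB and CFI, were listed at 0 in every library. After co-culture CD55, C1R and SERPING1 were upregulated, CD46 was downregulated, and C3, C1S and CD59 did not pass the test (edgeR's quasi-likelihood test, Benjamini-Hochberg adjusted p under 0.05 over 20360 genes). The same test called 33.4% of all genes tested, 18.4% as higher and 15.0% as lower, so 4 called of 7 has to be read against that share. Without either co-cultured replicate 1 or co-cultured replicate 2, only CD55 of the 3 higher genes kept its call and CD46 lost its own. With upper-quartile scaling the split over all genes changed from 3750 higher and 3059 lower to 3076 higher and 3929 lower, while the same 4 complement genes kept their direction and their call. The median log2 fold change was 0.26 over the 7 genes and -0.03 over all genes. The control and co-cultured libraries did not overlap for 4 of the 7, against 59.4% of all genes. C1R and SERPING1 also met the criterion of a log2 fold change beyond 1 with an unadjusted p under 0.05, which 10.5% of all genes met. Within the control group, replicate 1 had the lowest CPM of C1R, C1S and SERPING1 and the highest of C3, CD46 and CD59. Leaving it out lost none of the 4 calls.

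**Figure D1:**
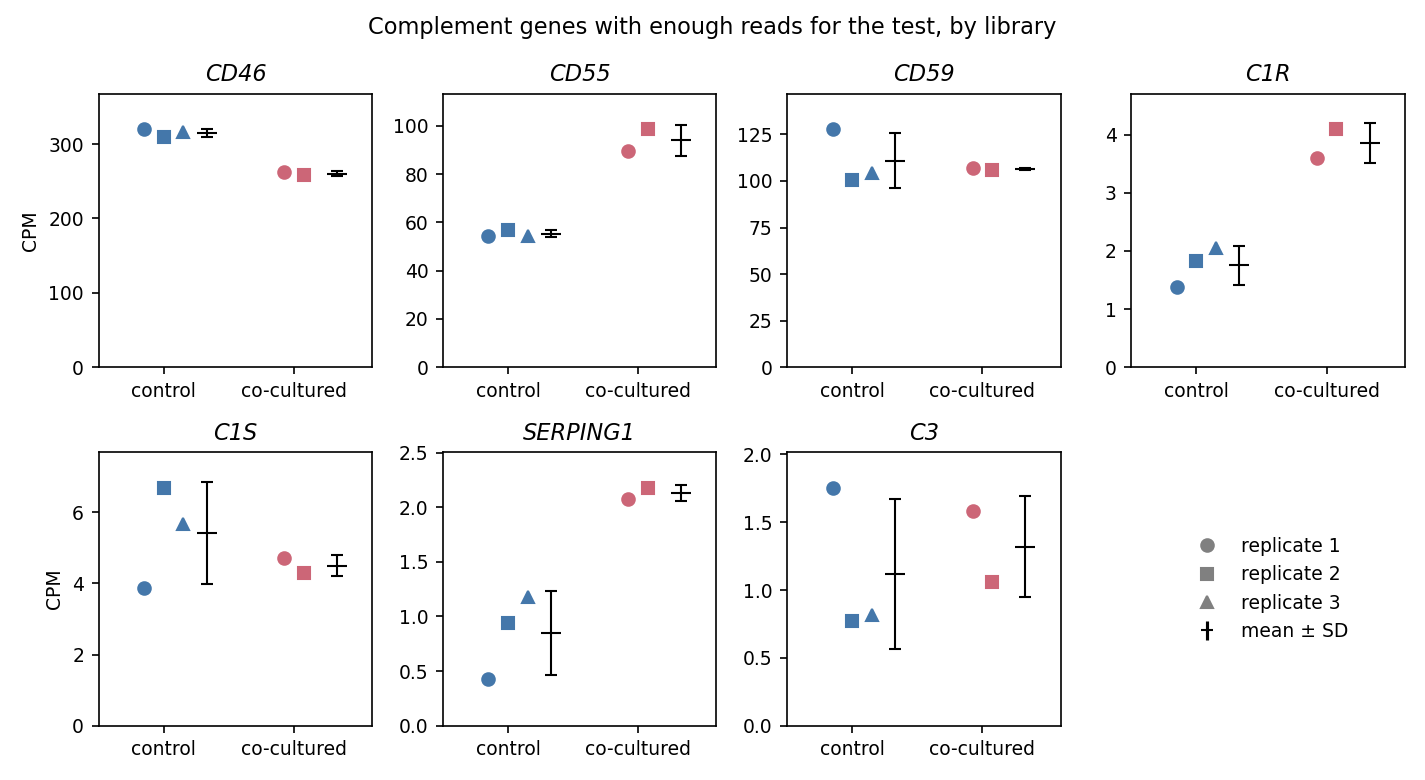
CPM (y axis, from 0) of the 7 tested genes in each control (blue) and co-cultured (red) library, with marker shape for the replicate number and black bars for mean ± SD. CD55, C1R and SERPING1 sit higher and CD46 lower in both co-cultured libraries than in any control, while C3, C1S and CD59 overlap.

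Among the surface regulators, CD55 changed most clearly. CD55, decay-accelerating factor, spans chr1:207321376-207386804 on the + strand (ENSG00000196352.15; GENCODE 29 on GRCh38) and gave 1024, 1031 and 1063 counts without HBMECs and 1638 and 1492 with them. In library-scaled units this was 54.4, 57.0 and 54.4 CPM against 89.5 and 98.6 CPM. Both co-cultured values lay far above a narrow control range. The rise was 1.70-fold, a log2 fold change of 0.77 (SE 0.0789; 95% interval 0.59 to 0.94; edgeR adjusted p = 0.000202). It was called under each of the 13 alternative settings, from 0.69 to 0.84 on the log2 scale.

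CD46, membrane cofactor protein, occupies chr1:207752057-207795513 on the + strand (ENSG00000117335.19) and was the most abundant of the 9 transcripts. Its control counts of 6020, 5590 and 6178 compared with 4801 and 3908 after co-culture, which scaled to 320, 309 and 316 CPM against 262 and 258 CPM. The groups did not overlap, but the fall was small. The log2 fold change was -0.28 (SE 0.0744; 95% interval -0.44 to -0.11; edgeR adjusted p = 0.0195), that is a level 1.21-fold higher in control cells. The call was lost on counts that ignored strand (-0.22, adjusted p = 0.0639), in the fit with a replicate block (-0.27, adjusted p = 0.171), and without control replicate 3 (adjusted p = 0.0661), co-cultured replicate 1 (0.141) or co-cultured replicate 2 (0.175), with the direction kept each time. In bulk RNA, fewer cells of a kind and less RNA per cell cannot be told apart.

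CD59, protectin, lies at chr11:33703010-33736491 on the - strand (ENSG00000085063.15). Control libraries held 2404, 1822 and 2035 of its reads and co-cultured ones 1955 and 1607, or 128, 101 and 104 CPM against 107 and 106 CPM. The co-cultured values fell inside the control range. The log2 fold change was -0.06 with a 95% interval of -0.30 to 0.18 (edgeR adjusted p = 0.708), and it became 0.059 without control replicate 1, the highest library. Of its exon bases, 6.07% are shared with the annotated gene AL049629.2.

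Seen together, the summed level of the 3 surface regulators averaged 481 ± 18.6 CPM over the 3 control libraries and 461 ± 2.88 CPM over the 2 co-cultured ones (mean ± SD), within 2 control SDs of each other. The composition of that sum differed more than its size. CD55 made up 11.5% ± 0.688 of it in control and 20.4% ± 1.26 in co-cultured cells, CD46 65.5% ± 1.56 and 56.5% ± 1.01, and CD59 23.0% ± 2.14 and 23.1% ± 0.252. These are shares of reads, not of transcripts, since CPM is not corrected for exon length, which differs between the 3 genes. The ratio of CD55 to CD46 counts within a library was 0.170, 0.184 and 0.172 in control and 0.341 and 0.382 after co-culture, 2.06-fold higher without overlap. A two-sided exact permutation test gave p = 0.2, the smallest value that 3 against 2 libraries allow. The ratio of CD59 to CD46 was 0.399, 0.326 and 0.329 in control and 0.407 and 0.411 after co-culture, and here the highest control came close to the lowest co-cultured library.

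The proteases of the C1 complex behaved differently from each other. C1R, on the - strand at chr12:7080199-7092607 (ENSG00000159403.16), is the protease that activates itself and then cleaves C1S. Its 26, 33 and 40 control counts stood against 66 and 62 after co-culture, or 1.38, 1.82 and 2.05 CPM against 3.61 and 4.10 CPM. Both co-cultured libraries were above all controls, at a low level. The rise was 2.19-fold, a log2 fold change of 1.13 (SE 0.248; 95% interval 0.57 to 1.69; edgeR adjusted p = 0.00773). The call did not hold without co-cultured replicate 1 (adjusted p = 0.0503) or co-cultured replicate 2 (adjusted p = 0.0738) although the log2 fold change was then 1.23 and 1.04. C1R shares 11.4% of its exon bases with the neighbouring gene C1RL, a C1r-like protease.

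C1S, the substrate-cleaving protease of the complex, lies close by on the opposite strand, at chr12:6988259-7071032 (ENSG00000182326.14). C1S gave 73, 121 and 111 control counts and 86 and 65 co-cultured counts, or 3.88, 6.69 and 5.68 CPM against 4.70 and 4.29 CPM. The co-cultured libraries lay between the lowest and the middle control. The log2 fold change was -0.27 with a 95% interval of -0.82 to 0.29 (edgeR adjusted p = 0.437), so a fall to 0.568-fold and a rise to 1.22-fold both lie within the interval. C1S shares 3.54% of its exon bases with EMG1, which had 1138 to 1380 counts per library. C1R counts per C1S count were 0.356, 0.273 and 0.360 without HBMECs and 0.767 and 0.954 with them. The ratio was 2.62-fold higher after co-culture without overlap (two-sided exact permutation p = 0.2, the smallest possible).

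**Figure D2:**
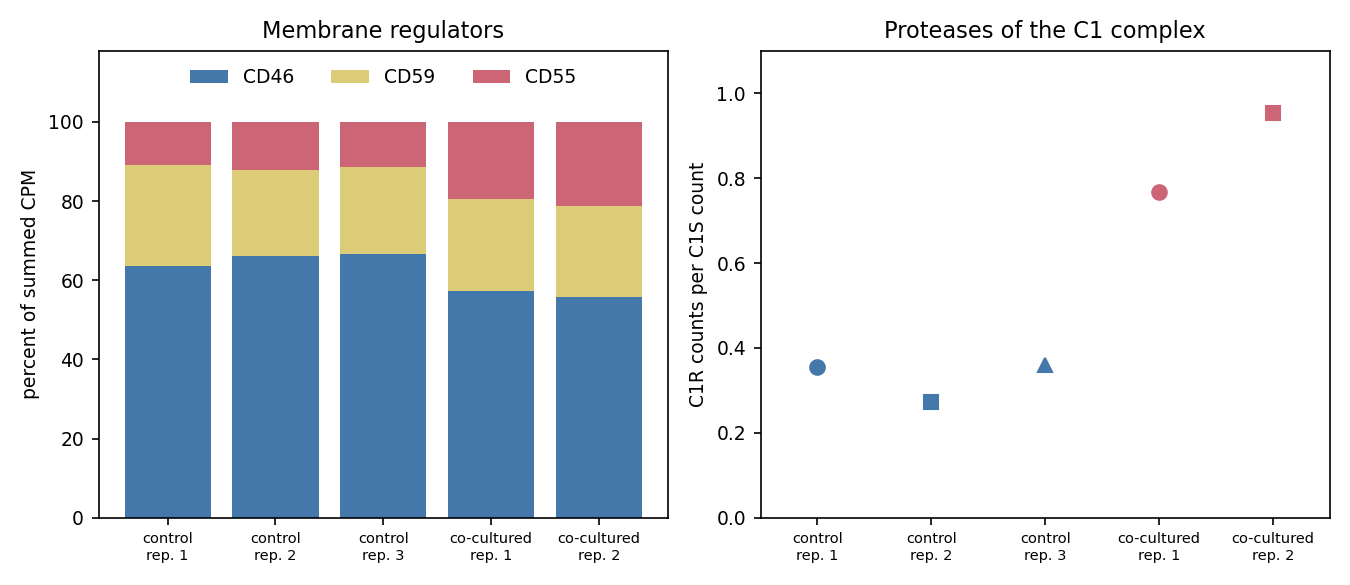
Left, share of CD46, CD59 and CD55 in their summed CPM (y axis, percent) in each library as stacked bars; right, C1R counts per C1S count in each library (y axis from 0; blue control, red co-cultured). CD55 takes 10.8% to 12.2% of the sum in control and 19.5% to 21.3% in co-cultured libraries, and the C1R to C1S ratio is 0.273 to 0.360 against 0.767 to 0.954.

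The inhibitor of both proteases showed the largest fold rise of the 9 genes. SERPING1, at chr11:57597387-57614853 on the + strand (ENSG00000149131.15), was counted 8, 17 and 23 times in the controls and 38 and 33 times after co-culture, or 0.425, 0.940 and 1.18 CPM against 2.08 and 2.18 CPM. The controls were spread widely but stayed below both co-cultured libraries. The rise was 2.49-fold, a log2 fold change of 1.32 (SE 0.383; 95% interval 0.45 to 2.18; edgeR adjusted p = 0.0271). The call was lost without control replicate 2 (adjusted p = 0.0540), co-cultured replicate 1 (0.136) or co-cultured replicate 2 (0.139), and the log2 fold change stayed between 0.999 and 1.64.

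C3, at chr19:6677704-6730562 on the - strand (ENSG00000125730.16), was the least abundant per kb of the 7 tested genes. The controls held 33, 14 and 16 reads of it and the co-cultured libraries 29 and 16, or 1.75, 0.774 and 0.819 CPM against 1.59 and 1.06 CPM. Control replicate 1 was the highest library of all. The log2 fold change was 0.26 with a 95% interval of -0.71 to 1.22 (edgeR adjusted p = 0.681), and it ranged from -0.068 without co-cultured replicate 1 to 0.75 without control replicate 1. The means were 1.12 ± 0.554 CPM in control and 1.32 ± 0.373 CPM in co-cultured cells (SD), closer to each other than 1 SD of either group.

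CFB, at chr6:31945650-31952084 on the + strand (ENSG00000243649.8), was listed at 0 in all 5 libraries, as was CFI, at chr4:109740694-109802179 on the - strand (ENSG00000205403.13). For CFI, 32.0% of exon bases are shared with another annotated gene, AC126283.2, which also had no counts. For CFB the zeros cannot be read as absence of its RNA, because its surroundings in the major histocompatibility region were nearly empty as a whole. Within 500 kb of CFB, 64 of 72 protein-coding genes (88.9%) never exceeded 3 counts and 55 (76.4%) were at 0 throughout, against 24.4% and 14.2% of all 19969 protein-coding genes. The genes listed at 0 there included VARS and LSM2, a tRNA synthetase and an RNA-processing factor that every cell uses, as well as C2 and C4B, and C4A, a near-identical copy of C4B, had 1, 1 and 2 control counts and 2 and 3 after co-culture. The region also exists in alternative haplotype entries. None of those carried the name of any of the 9 genes, and the 5518 unnamed entries on patches and haplotypes held at most 1 count each over the 5 libraries. In addition, 45.5% of CFB exon bases are shared with other genes on the same strand, so reads there could not be assigned to one of them.

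**Figure D3:**
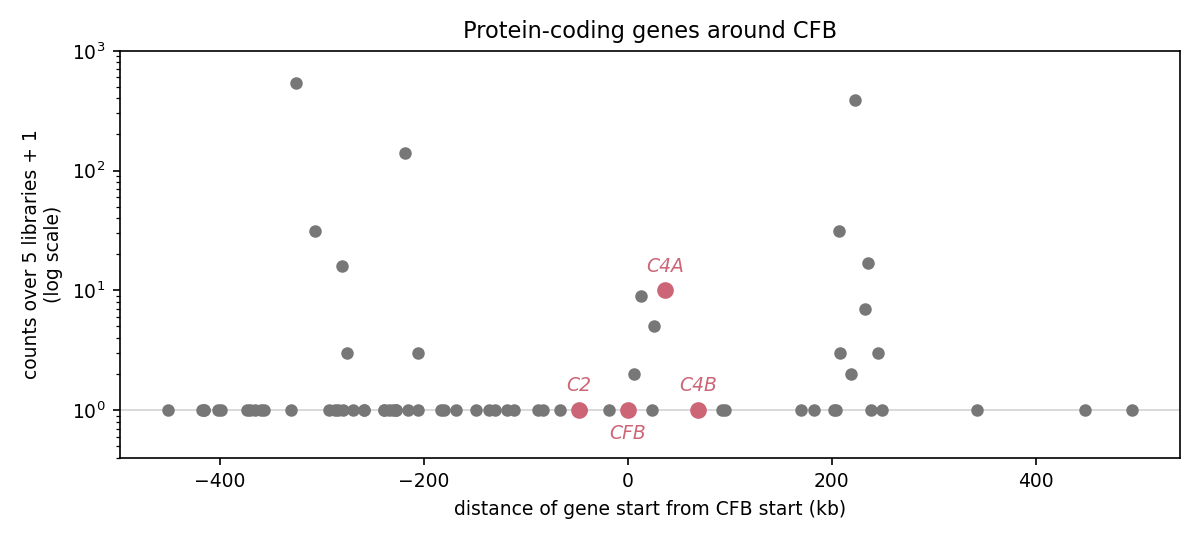
Counts summed over the 5 libraries, plus 1 (y axis, log scale), of protein-coding genes within 500 kb of CFB, by distance of gene start from the CFB start in kb (x axis). CFB and its complement neighbours C2, C4A and C4B are red; 55 of 72 genes lie on the line of no counts.

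Levels per kb of exon, with all annotated exons of a gene merged, allow a rough ranking of the genes against each other. In control cells the order by mean CPM per kb was CD46 (36.2), CD59 (10.7), CD55 (9.36), C1S (0.839), C1R (0.298), SERPING1 (0.235) and C3 (0.134), where the library ranges of C1R and SERPING1 and of SERPING1 and C3 overlapped. In co-cultured cells it was CD46 (29.9), CD55 (15.9), CD59 (10.3), C1S (0.696), C1R (0.654), SERPING1 (0.591) and C3 (0.159), where only the ranges of C1S and C1R overlapped. By this measure CD55 stood below CD59 in control and above it in co-cultured cells. The length of the transcripts expressed was not determined, and close ranks such as CD59 and CD55 in control could depend on it. The surface regulators stayed well apart from the fluid-phase genes, since the lowest library of any of them, for CD55 in control, was at 9.21 CPM per kb and the highest of the others, for C1S in control, at 1.04 CPM per kb.

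The wider complement list of 64 genes gave the setting for these changes. It had 22 genes tested, of which 8 were higher, 5 lower and 9 not called, with a median log2 fold change of 0.36, beside 18.4% higher, 15.0% lower and a median of -0.03 over all genes tested. A further 32 genes never exceeded 3 counts. Without the 9 genes it had 15 tested, 5 higher and 4 lower. For the whole list the 8 higher became 5, 3 and 4 and the 5 lower became 3, 1 and 2 without control replicate 2, co-cultured replicate 1 and co-cultured replicate 2, respectively. By role, 6 of 8 classical pathway genes, 5 of 9 lectin pathway genes, 2 of 4 genes of the alternative pathway and C3, 4 of 7 terminal pathway genes, 9 of 16 soluble regulators, 2 of 9 membrane regulators and 4 of 11 receptors were at or below that floor. Another 10 had more than 3 counts in some library but too few for the test. Of the genes at the floor, C2, C4A, C4B and CFB lie in the nearly empty region around CFB. Their low counts cannot be read as absence of RNA. CFD, also at the floor, had a second entry on a patch or haplotype, with 2, 1 and 1 control counts and 1 and 0 after co-culture.

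Of the other pathway genes 5 rose, and 4 of them were on the list of receptors and binding proteins, called the receptor list here. The receptor list has 11 genes, of which 5 were tested and CALR, a chaperone that can bind C1q at the cell surface, was the one not called (log2 fold change -0.03, edgeR adjusted p = 0.82). The integrin subunits ITGAM and ITGAX, alpha chains of complement receptors for cleaved C3, had 17, 12 and 12 against 73 and 67 counts (log2 fold change 2.52, edgeR adjusted p = 0.000236) and 12, 4 and 8 against 82 and 37 counts (3.02, adjusted p = 0.000874). Their shared beta chain gene ITGB2 had too few reads for the test, with 3, 5 and 11 control counts and 9 and 6 after co-culture. Of 8 leukocyte markers only 2 could be tested and neither was called. CD14 had 22, 17 and 26 control counts and 34 and 22 after co-culture. CSF1R had 27, 14 and 0 control counts and 0 and 0 after co-culture. PTPRC was at 1 count in 1 control library and 0 elsewhere. The summed level of the 8 markers was 1.54 to 3.14 CPM in control and 1.72 to 1.97 CPM in co-cultured libraries. The C5a receptor C5AR1 had 6, 2 and 8 against 17 and 12 counts (1.59, adjusted p = 0.0415), C1QBP, a binding protein for the globular heads of C1q, rose by 0.50 (adjusted p = 0.0339), and C1RL rose by 0.58 (adjusted p = 0.00445).

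Of the other pathway genes, 4 fell. CFP, properdin, which stabilises the alternative pathway convertase, went from 34, 27 and 27 counts to 7 and 12 (log2 fold change -1.43, edgeR adjusted p = 0.0219). C5, the precursor of the pore-forming fragment C5b, had 723, 668 and 640 against 488 and 436 counts (-0.38, adjusted p = 0.0213). CSMD2, a large membrane protein with complement control domains, had 4860, 5741 and 5887 against 3338 and 2615 counts (-0.72, adjusted p = 0.000904), and COLEC12, a scavenger receptor collectin, had 14, 14 and 12 against 5 and 3 counts (-1.55, adjusted p = 0.0374). ITGAM, ITGAX and CSMD2 were called under every alternative that could be run. The calls of C1RL (without co-cultured replicate 1) and of CFP (DESeq2, and without co-cultured replicate 1) were lost under 1 and 2 alternatives. C5 lost its call under 3, C5AR1 and C1QBP under 4 and COLEC12 under 7, with no change of direction, and for these 4 genes leaving out either co-cultured replicate or control replicate 2 was among the settings that ended the call, as was leaving out control replicate 3 for C1QBP.

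**Figure D4:**
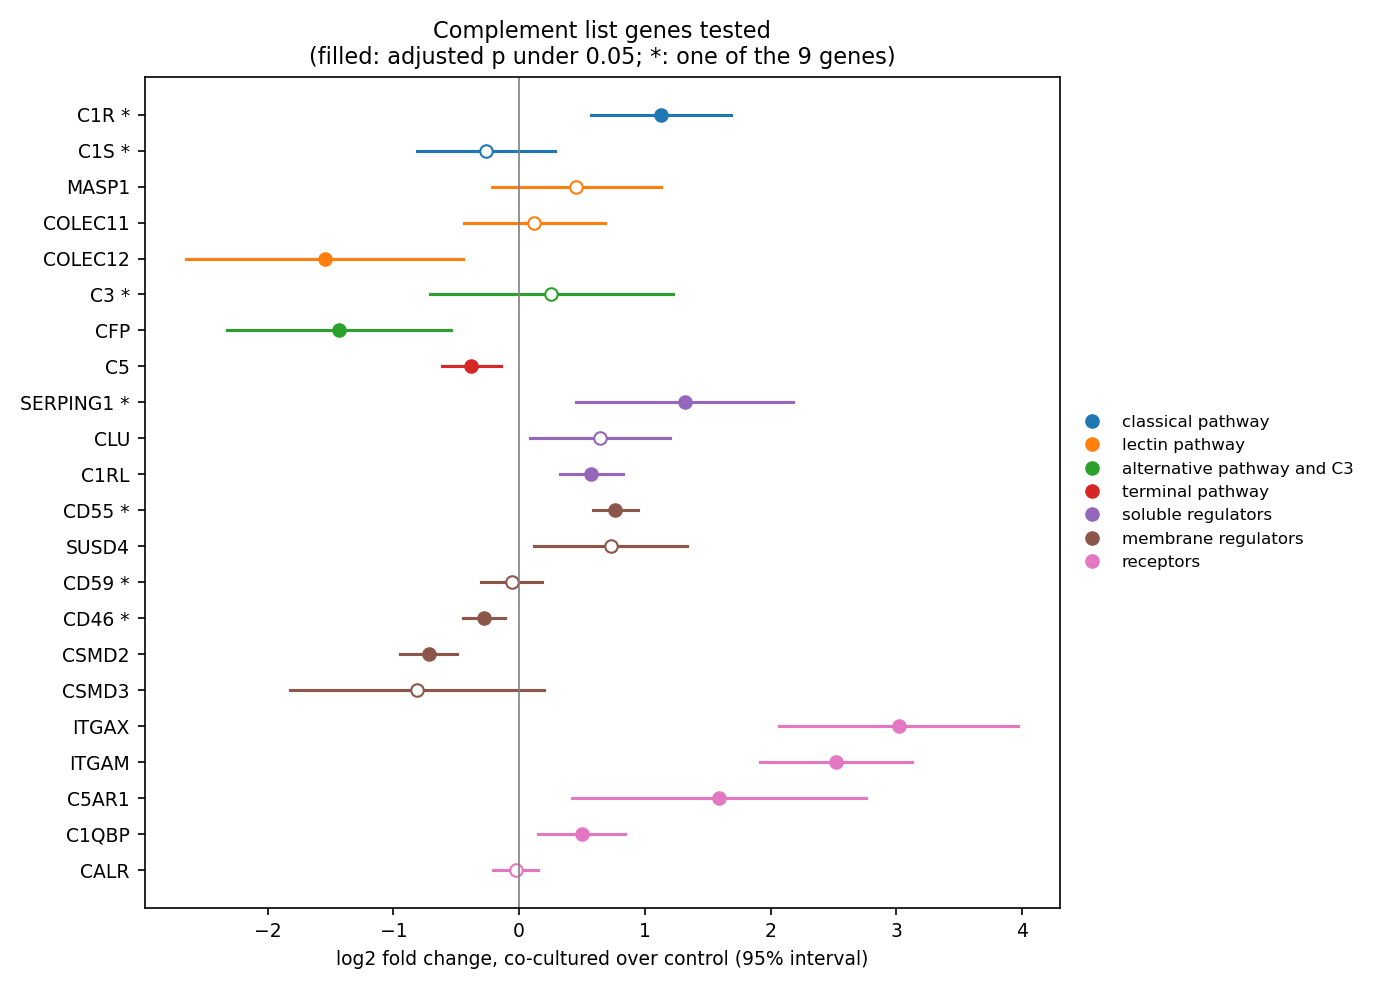
Log2 fold change, co-cultured over control (x axis), of the 22 tested complement genes with 95% intervals as lines, coloured by role; filled points have an adjusted p under 0.05 and an asterisk marks the 7 tested genes of the 9. CD55 and CD46 lie on either side of 0, and ITGAX and ITGAM have the largest fold changes.

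The protein-coding genes whose profile over the 5 libraries was nearest to SERPING1, by Euclidean distance of centred log2(CPM + 0.1) values, were HES4 (0.154), CTXN2 (0.160) and NETO1 (0.169). For CD46 they were CSNK1D (0.0351), PNPLA2 (0.0359) and MCM2 (0.0400). All of these profiles share the same 5 libraries and differ between the same 2 groups, with log2 fold changes of 1.49, 1.32 and 1.14 in the first set and -0.28, -0.27 and -0.28 in the second.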

How the data were processed

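The authors sequenced rRNA-depleted RNA from directional libraries, and the submitters' processing notes name CASAVA 1.8, STAR 2.6.1b, DESeq2 and the build GRCh38. The deposited files hold raw counts per gene from STAR, of which the column for the expected strand (92.3% to 93.1% of stranded gene counts) was used. Rows of unassigned reads were left out of library sizes. They included 8.13% to 16.8% unmapped, 7.05% to 7.75% multimapping, 2.55% to 2.89% ambiguous and 40.1% to 51.2% outside features. The unmapped share was higher, and the share outside features lower, in both co-cultured libraries than in any control. STAR drops reads in shared exons, which lowers overlapping genes. A deposited table gave names for 7 of the 9 genes, and GENCODE 29 those of CFB and CFI. That table's fold changes and p-values, the authors' own comparison, were not used.

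Genes with low counts were removed with filterByExpr, libraries were scaled by TMM, and groups were compared with edgeR's quasi-likelihood test (edgeR 4.0.16, limma 3.58.1, R 4.3.3) and Benjamini-Hochberg adjustment over 20360 genes. CPM used TMM-scaled library sizes, and per-kb levels the merged exon length. The biological coefficient of variation was 10.2%. Ratios were compared by exact permutation of log2 values (scipy 1.17.1). The code was tested on simulated data. No libraries were duplicates, since every within-group pair differed beyond counting error (chi-square per degree of freedom 4.19 to 16.1). Alternatives were DESeq2 1.42.0, 2 other scalings, 2 filters, unstranded counts, summed entries of one name, a replicate block and leaving out each library. A further promoter motif was searched and is not reported here.

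Named were the 9 genes, other complement genes called, genes at the floor as counts by role, 3 nearest profiles for the called genes with the largest rise and fall, and markers. The 9 genes and all lists were chosen with earlier results of these data known.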

Additional observations from a re-analysis of the deposited data

How the results depend on the processing

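CD55 kept its call under all 13 alternatives, and C1S, C3 and CD59 gained none. C3 turned to -0.068 without co-cultured replicate 1 (leave-one-out range -0.068 to 0.75) and CD59 to 0.059 without control replicate 1 (range -0.12 to 0.059), neither past the threshold. Calls were lost for CD46 on unstranded counts (-0.22) and with the replicate block (-0.27), and when single libraries were left out for CD46 (range -0.29 to -0.26), C1R (0.99 to 1.26) and SERPING1 (0.999 to 1.64). The count of the 9 genes called higher went from 3 to between 1 and 3 on leaving out a library, and the count called lower from 1 to between 0 and 1, with 0 on unstranded counts and with the replicate block. For the complement list, 8 higher became 5 with at least 10 counts in every library and 3 to 9 on leaving out a library, and 5 lower became 3 under DESeq2, the 10-count filter, unstranded counts and the replicate block, and 1 to 5 on leaving out a library. SERPING1 did not pass the 10-count filter. Apart from these losses of reads or libraries, the cause was not tested.

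Deviations from the group means of same-numbered libraries had correlations of -0.114 and -0.067 for numbers 1 and 2. With 2 co-cultured libraries their deviations mirror each other, so these values cannot decide whether replicate numbers pair the libraries. The replicate block moved the genes called from 3750 to 2771 higher and from 3059 to 2053 lower. Over all genes the calls numbered 1749 higher and 985 lower without co-cultured replicate 1, 1910 and 1113 without co-cultured replicate 2, and 5295 and 4602 without control replicate 1. Depth limits the precision for C3, C1R and SERPING1, which had 8 to 66 counts per library. With 2 co-cultured libraries, leaving out either leaves 1, assumed to vary like the controls.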
